A study of Mus musculus with 18 samples.

Results

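Ribosome biogenesis genes were followed in 6 populations of sorted mouse blood stem and progenitor cells. The 35 members were named by symbol for their known roles, with earlier results of these data known, and 33 of them had a probe set with a single gene symbol, of 19505 genes measured. Nop56 and Gnl3 were not analysed here. Each member was represented by 1 probe set, so its level could be compared between arrays but not with that of another member.

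The cells were freshly isolated from C57Bl/6J mice, from the fetal liver (FL) of embryos at E13.5 or from the bone marrow (BM) of adults aged 3 to 12 months. Hematopoietic stem cells (HSC) of the long-term (LT-HSC) and the short-term (ST-HSC) kind and multipotent progenitors (MPP) were sorted from each source as LSK cells, that is lineage-negative cells carrying Sca-1 and Kit, and divided by Cd150 and Cd48. Total RNA of each sample was hybridised to 1 array, with 3 arrays in each of the 6 groups and 18 in all, lettered a, b and c. No group was labelled as carrying a transgene, a deletion or a treatment in its title, source or cell type. The free-text descriptions speak instead of transplanted marrow with guide RNAs, sgEzh2 for 4 FL arrays (LT-HSC a, ST-HSC a, MPP a and MPP b) and sgLuc for the others. They contradict the other labels, which were used. The labels do not state whether the 3 arrays of a group are from different animals or pools. The p-values therefore rest on the spread among these samples alone, which may be technical.

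A ribosome is assembled from ribosomal RNA and ribosomal proteins with the help of a large set of factors that do not stay in the finished particle. RNA polymerase I transcribes the ribosomal DNA in the nucleolus. Small nucleolar ribonucleoproteins (snoRNPs) then modify the transcript, box C/D particles by methylation and box H/ACA particles by pseudouridylation. Separate sets of factors fold, cut and export the small and the large subunit. The pathway is a well known target of Myc family transcription factors, and blood stem cells are known for a low rate of protein synthesis relative to their progeny.

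Among the sort markers, the transcripts of those that divided the LSK cells, Cd150 and Cd48, followed the labels. Kit had a mean log2 value between 13.07 and 13.26 in all 6 groups. Slamf1, which encodes Cd150, fell from 9.31 ± 0.18 (SD, n = 3) in FL LT-HSC to 6.71 ± 0.24 in FL MPP and from 9.66 ± 0.40 in BM LT-HSC to 7.25 ± 0.14 in BM MPP, and both differences passed (limma, adjusted p = 1.03e-07 and 2.74e-07). Cd48 had means of 12.35 (FL) and 12.26 (BM) in MPP, against 9.79 and 10.32 in LT-HSC. In ST-HSC the means were 7.49 (FL) and 8.04 (BM) for Slamf1 and 9.96 and 9.83 for Cd48. Flt3, Cd34 and Procr had means of 7.19 to 10.10, 10.59 to 12.31 and 6.24 to 7.58 over the groups. The mean of Cd34 was 11.72 in FL LT-HSC and 10.59 in BM LT-HSC. Ptprc, the pan-leukocyte marker, lay between 11.27 and 11.86, and Ly6a, which encodes Sca-1, was not analysed here. In 4 arrays the interquartile range of all genes was under 2.8, at 2.67 in FL LT-HSC b, 2.56 in BM LT-HSC c, 2.59 in BM ST-HSC b and 2.62 in BM ST-HSC c, against 2.93 to 3.15 in the other 14. These are called the narrow arrays. None of the 6 MPP arrays was narrow.

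When the 3 populations were weighted equally, 19 of the 33 members were higher in FL and none was lower (limma, p adjusted by the Benjamini-Hochberg method over 19505 genes, under 0.05). At an unadjusted p under 0.05 there were 24 higher and 0 lower, against 21.6% and 13.4% of all genes. At the adjusted threshold 15.9% of all genes were called higher. The median difference of the members was 0.34 on the log2 scale, against 0.01 for all genes, and 32 of 33 differences were positive. Members are brighter than most genes, and of the 6357 genes at least as bright as the dimmest member, Rrp12, 30% were called higher, with a median difference of 0.12. In bulk samples such as these, fewer cells of a type and less RNA per cell cannot be told apart.

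The direction held for 30 of the 33 members under all 29 alternatives tried, the exceptions being Rrp1b, Gar1 and Ddx21, and 12 of the 19 calls held under all of them. These were Nolc1, Mybbp1a, Wdr75, Nop14, Rrp9, Rrp12, Bysl, Pno1, Bop1, Wdr12, Nop2 and Rrp15. Without the narrow arrays 14 members passed, 13 of them shared, and the median difference was 0.23. The spread of each array as a covariate left 19 calls, 18 of them shared, and a median of 0.22. Without the 4 arrays described as sgEzh2 12 members passed, each of which also passed with all arrays.

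**Figure D1:**
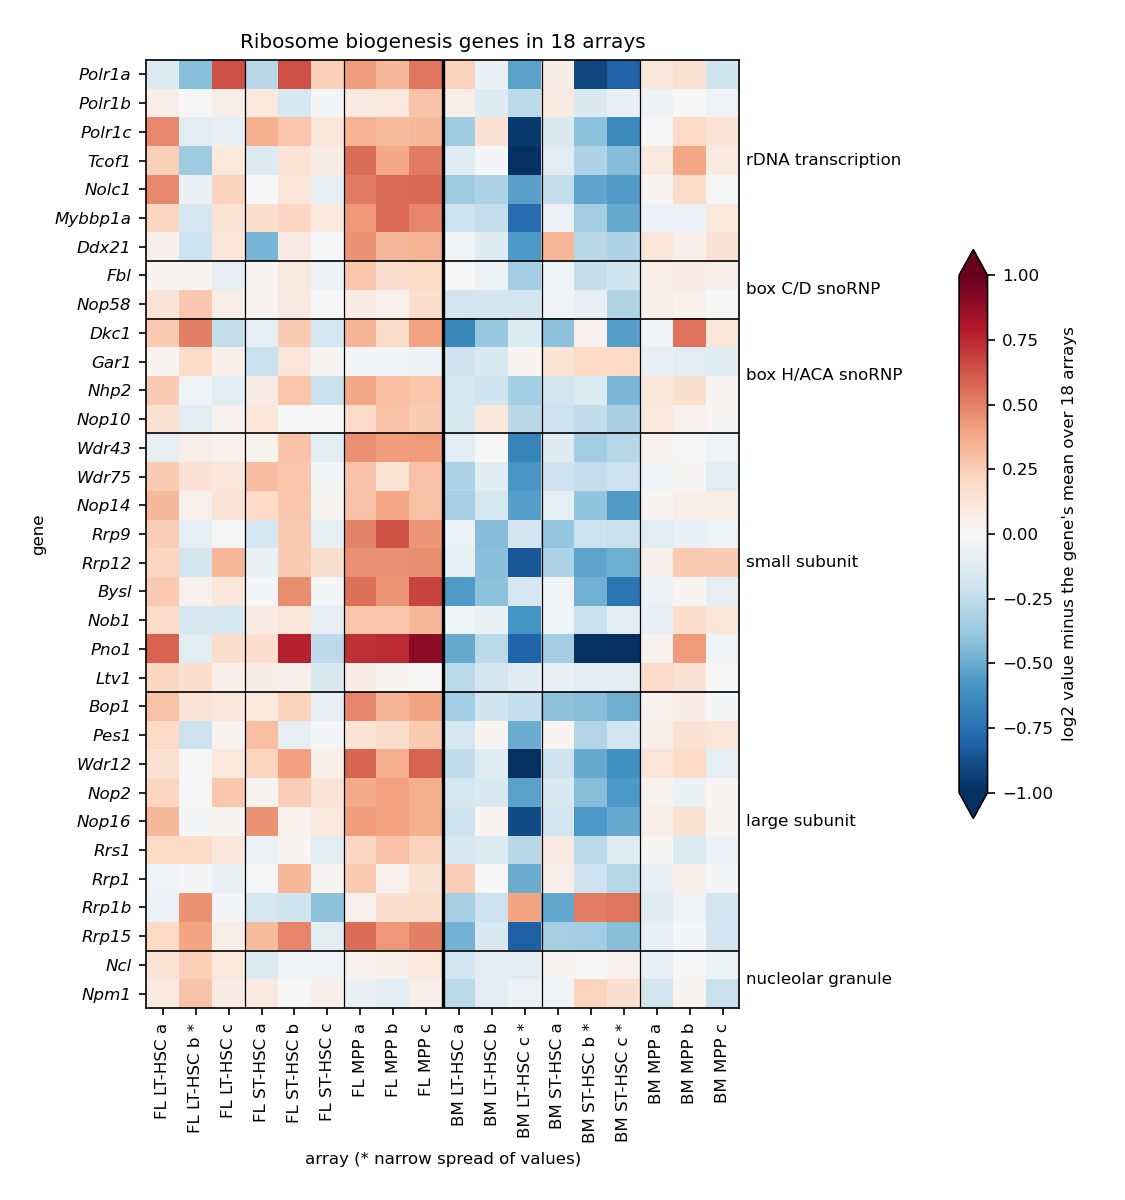
Log2 value of each of the 33 measured members minus its own mean over 18 arrays (colour, from -1 in blue to 1 in red), with members in rows by role and arrays in columns. FL MPP arrays are the reddest block, and the narrow arrays (asterisks) of BM, LT-HSC c and ST-HSC b and c, are the bluest columns, although Rrp1b is red in all 3 and Gar1 and Npm1 are red in ST-HSC b and c.

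Among genes of ribosomal DNA transcription, 3 of 7 were higher in FL, against 15.9% of all genes and 30% of those as bright as the members. Nolc1, a nucleolar phosphoprotein that binds RNA polymerase I and snoRNPs, showed the clearest difference of these. Its log2 values in FL were 10.52, 9.97 and 10.27 in LT-HSC, 10.04, 10.16 and 9.94 in ST-HSC, and 10.56, 10.60 and 10.61 in MPP. In BM they were 9.67, 9.73 and 9.49 in LT-HSC, 9.80, 9.51 and 9.47 in ST-HSC, and 10.06, 10.22 and 10.04 in MPP. Every FL array lay above every BM array of the same population. The average difference was 0.52 ± 0.08 (log2 ± SE, 9 arrays against 9, adjusted p = 0.000119), or 1.43-fold, and it was 0.47 without the narrow arrays.

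Mybbp1a, a nucleolar regulator of RNA polymerase I transcription and rRNA processing, was likewise separated within each population. It differed by 0.47 ± 0.09 (adjusted p = 0.000714), with means of 11.18, 11.28 and 11.62 in FL LT-HSC, ST-HSC and MPP against 10.72, 10.82 and 11.13 in BM. Polr1c, a subunit shared by RNA polymerases I and III, differed by 0.45 ± 0.12 (adjusted p = 0.0123), but at 0.30 it did not pass without the narrow arrays (adjusted p = 0.0536). The other 4 did not pass. Polr1a, the largest subunit of the polymerase, differed by 0.44 ± 0.17, with values from 8.66 to 9.73 in FL and 8.18 to 9.32 in BM. Polr1b, its second largest subunit, differed by 0.12 ± 0.07, the treacle gene Tcof1 by 0.34 ± 0.13 and the RNA helicase Ddx21 by 0.15 ± 0.11. Without the narrow arrays the Ddx21 difference was -0.01.

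Of the 6 measured snoRNP proteins 3 were higher, against 15.9% of all genes and 30% of those as bright as the members. In the box C/D particle the core protein Nop58 was higher in FL by 0.19 ± 0.06 (adjusted p = 0.0262), while the methyltransferase Fbl differed by 0.15 ± 0.07 and did not pass. In the box H/ACA particle Nhp2 and Nop10 were higher by 0.26 ± 0.08 and 0.21 ± 0.07 (adjusted p = 0.0216 and 0.029). None of these 3 calls held without the narrow arrays, where adjusted p was 0.157, 0.0924 and 0.0847. Dkc1, the pseudouridine synthase, differed by 0.32 ± 0.12 and did not pass (adjusted p = 0.0595). Gar1, the remaining core protein, differed by 0.02 ± 0.06.

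Of the small subunit factors 7 of 9 were higher, against 15.9% of all genes and 30% of those as bright as the members. Their median difference was 0.40. Pno1, the partner of the endonuclease that releases the end of the small subunit rRNA, had the largest difference of any member. Its FL values were 9.71, 9.01 and 9.30 in LT-HSC, 9.29, 9.89 and 8.86 in ST-HSC, and 9.85, 9.87 and 10.02 in MPP. Its BM values were 8.62, 8.85 and 8.32 in LT-HSC, 8.78, 8.11 and 7.93 in ST-HSC, and 9.16, 9.55 and 9.09 in MPP. Within each population FL and BM did not overlap, although FL ST-HSC c at 8.86 lay close to BM ST-HSC a at 8.78. The average difference was 0.82 ± 0.15 (adjusted p = 0.000408), or 1.77-fold, and 0.66 without the narrow arrays.

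Bysl, which takes part in late small subunit maturation, differed by 0.56 ± 0.10 (adjusted p = 0.000377). Its lowest FL value of a population was 10.12 in LT-HSC, 10.06 in ST-HSC and 10.52 in MPP, and the highest BM values were 9.91, 10.05 and 10.10. Rrp12, an export factor of the pre-ribosome, differed by 0.46 ± 0.10 (adjusted p = 0.00207). Nop14, of the small subunit processome, differed by 0.43 ± 0.08 (adjusted p = 0.000454). Wdr75, a processome component linked to ribosomal DNA transcription, differed by 0.40 ± 0.07 (adjusted p = 0.000581), and Wdr43, of the same subcomplex, by 0.34 ± 0.09 (adjusted p = 0.00759). Bysl, Nop14 and Wdr75 were separated within all 3 populations, as Pno1 was. Rrp12 and Wdr43 overlapped in LT-HSC.

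Rrp9, a protein of the processome's snoRNP, differed by 0.38 ± 0.08 (adjusted p = 0.00153), most clearly in MPP, where FL values of 10.41, 10.55 and 10.36 stood against 9.81, 9.85 and 9.87 in BM. Its LT-HSC values of 10.16, 9.82 and 9.91 in FL and 9.86, 9.48 and 9.73 in BM overlapped. The endonuclease Nob1 differed by 0.19 ± 0.09 and Ltv1, a late assembly factor, by 0.11 ± 0.06, and neither passed. So the partner Pno1 was higher in FL at adjusted p under 0.05 and Nob1 was not, a pair whose difference was not tested against each other.

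Of the large subunit factors 6 of 9 were higher, against 15.9% of all genes and 30% of those as bright as the members. Their median difference was 0.45. Rrp15, a nucleolar assembly factor, had FL values of 9.62, 9.82 and 9.48 in LT-HSC, 9.74, 9.91 and 9.31 in ST-HSC, and 9.98, 9.86 and 9.93 in MPP. The BM values were 8.95, 9.27 and 8.61 in LT-HSC, 9.09, 9.08 and 9 in ST-HSC, and 9.34, 9.41 and 9.23 in MPP. All 3 populations were separated, and the difference of 0.63 ± 0.10 (adjusted p = 9.2e-05), or 1.55-fold, was the second largest of the members. With all arrays fitted, Rrp15 was also the 1 member called higher in FL in each of LT-HSC, ST-HSC and MPP taken alone. These calls missed the threshold in 5 of the alternatives for LT-HSC, 8 for ST-HSC and 11 for MPP. Separation in all 3 populations was not particular to Rrp15, since 10 members showed it.

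Bop1, Pes1 and Wdr12 form the PeBoW complex of large subunit rRNA processing, and they did not all pass. Bop1 had the smallest adjusted p of the members, with a difference of 0.45 ± 0.06 (adjusted p = 4.61e-05). In FL it was at 11.30, 11.14 and 11.12 in LT-HSC, 11.11, 11.24 and 10.93 in ST-HSC, and 11.50, 11.35 and 11.40 in MPP. In BM it was at 10.66, 10.81 and 10.77, 10.60, 10.58 and 10.52, and 11.04, 11.08 and 11 in the same order. Each population was separated, and the Bop1 difference of 0.45 was as large without the narrow arrays. Wdr12 was separated too and differed by 0.55 ± 0.11 (adjusted p = 0.00102). Pes1 differed by 0.17 ± 0.09 and did not pass (adjusted p = 0.162).

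Nop2, an rRNA methyltransferase, and Nop16, a nucleolar assembly factor, differed by 0.45 ± 0.08 and 0.47 ± 0.11 (adjusted p = 0.000283 and 0.00397), and Nop2 was separated in all 3 populations. Rrs1, which helps bring the smallest ribosomal RNA to the particle, was higher by 0.24 ± 0.06 (adjusted p = 0.00849), a call lost without the narrow arrays (adjusted p = 0.107). Rrp1, a processing factor, differed by 0.16 ± 0.09 and did not pass.

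Its paralog Rrp1b, a nucleolar protein, differed by -0.01 ± 0.14 and behaved apart from the other members. Its values in the narrow arrays were 10.08, 10.03, 10.14 and 10.17, above every one of the other 14 arrays, which lay between 9.11 and 9.81. It was the 1 member with all narrow arrays above all others, as were 1641 of the 19505 genes. Without these arrays its difference was 0.24 and passed (adjusted p = 0.027).

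The abundant nucleolar chaperones Ncl and Npm1 showed small differences. Ncl differed by 0.10 ± 0.06 and Npm1 by 0.11 ± 0.07, and neither passed. In LT-HSC the 3 FL values of Npm1, 12.53, 12.72 and 12.52, lay above the BM values of 12.17, 12.32 and 12.38. In ST-HSC they were 12.53, 12.43 and 12.49 in FL against 12.40, 12.66 and 12.60 in BM and overlapped.

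**Figure D2:**
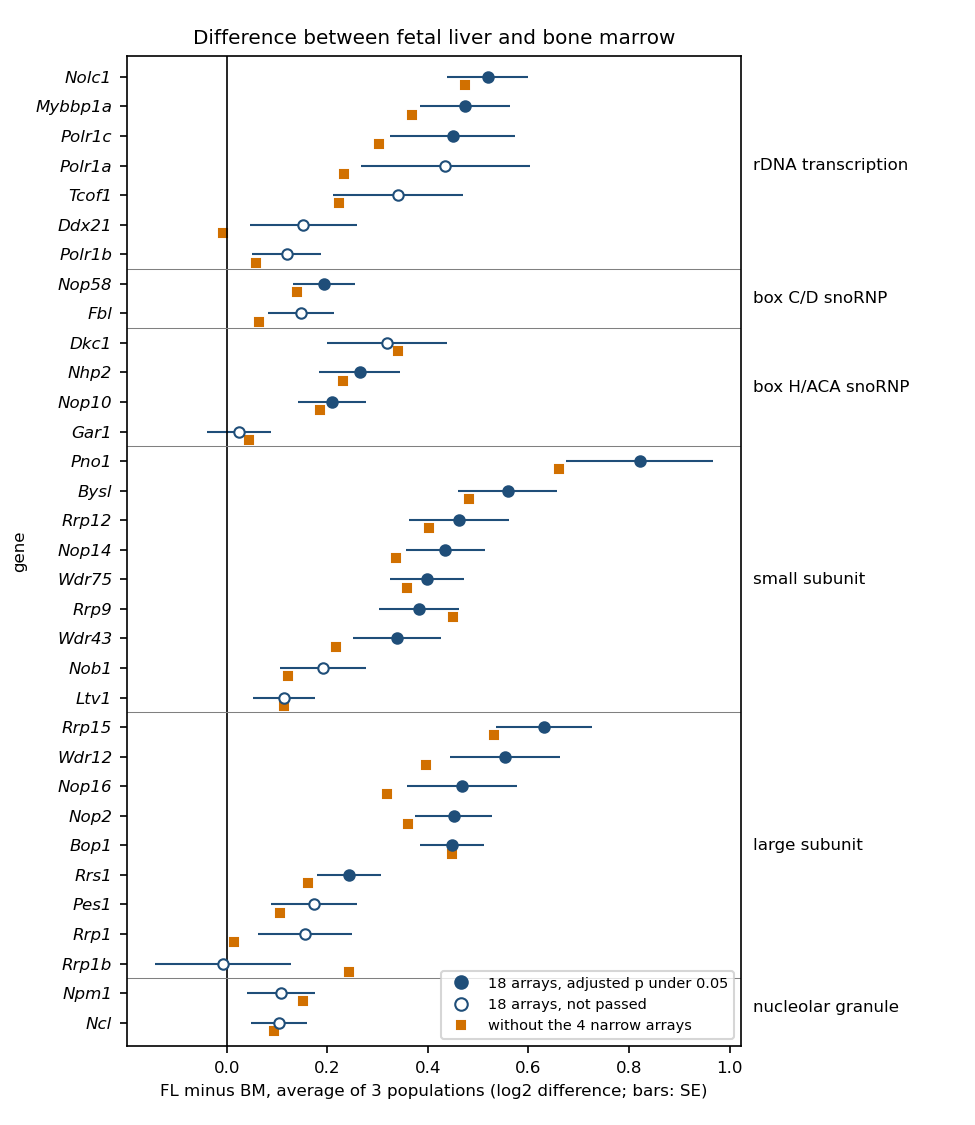
Difference between FL and BM averaged over 3 populations (log2, bars show SE) for each member, grouped by role. Filled circles passed at an adjusted p under 0.05 and open ones did not, and squares show the value without the 4 narrow arrays, which is smaller for most members, larger for Rrp9, Dkc1, Gar1, Npm1 and marginally Bop1, and moves from -0.01 to 0.24 for Rrp1b.

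The same comparison was made in each population alone. In LT-HSC the median difference was 0.34, against 0.095 for genes at least as bright as the dimmest member. There 7 members were higher in FL, against 3.08% of all genes. They were Nolc1 (0.63), Wdr75 (0.51), Nop14 (0.52), Bop1 (0.44), Nop2 (0.46), Rrs1 (0.37) and Rrp15 (0.70), with adjusted p from 0.00792 to 0.0486. All 33 differences were positive. In 17 of 33 members every FL LT-HSC array lay above every BM LT-HSC array, which 11% of all genes did. The count was 1 without FL LT-HSC a, 3 without BM LT-HSC c, 0 without the sgEzh2 arrays and 0 when only these 6 arrays were fitted. Without the narrow arrays it was 7, of which 4 were shared, and with the spread as a covariate 16.

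In ST-HSC the median difference was 0.30, against 0.20 for genes at least as bright as the dimmest member. There 13 members were higher, against 12.1% of genes. Pno1 (1.07 ± 0.25, adjusted p = 0.0081) and Bop1 (0.53 ± 0.11, adjusted p = 0.00365) were the first of these by size and by adjusted p. The others were Polr1c, Nolc1, Mybbp1a, Wdr75, Nop14, Rrp12, Bysl, Wdr12, Nop2, Nop16 and Rrp15, between 0.40 and 0.67. FL lay above BM in 17 members without overlap (18.8% of genes), and below BM in Gar1 and Ncl (16% of genes). Of the 3 BM ST-HSC arrays 2 are narrow, and their part in this comparison was not tested apart from the loss of arrays. No member passed without the narrow arrays (limma, 1 BM ST-HSC array left, which was taken to vary like the other groups), although the median difference stayed at 0.21. With the spread as a covariate 1 member, Bop1, passed and the median was 0.17. The median of equally bright genes was taken only in the fit of all arrays without the covariate. The count was 7 without FL ST-HSC a, 1 without FL ST-HSC b, 2 without BM ST-HSC b, 1 without BM ST-HSC c, 2 without the sgEzh2 arrays, 7 when only these groups were fitted and 6 after repeated quantile normalization.

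In MPP 3 members were higher, against 1.92% of genes. The median was 0.26, against 0.05 for genes at least as bright as the dimmest member. Rrp9 differed by 0.59 ± 0.14 (adjusted p = 0.0143), Rrp15 by 0.60 ± 0.17 (adjusted p = 0.0408) and Bysl by 0.60 ± 0.17 (adjusted p = 0.0471). Replicates were tight here, and 27 of 33 members had every FL MPP array above every BM MPP array, which 19.1% of genes did. In all 3 populations at once 10 members were separated in this way, against 4.35% of genes. The MPP count changed with the arrays fitted, and the cause was not tested. This count was 9 without the narrow arrays, 10 with the spread as a covariate and 12 when only the MPP groups were fitted. In the same order 960, 959 and 1413 of 19505 genes were called higher. Nolc1, Mybbp1a, Wdr43, Bop1, Wdr12 and Nop2 passed in each of these 3 fits. The count of members fell to 0 without FL MPP b, BM MPP a or BM MPP b. It was 1 without FL MPP a, FL MPP c, BM MPP c, FL ST-HSC a or BM ST-HSC b. It was 0 without the sgEzh2 arrays and 7 without BM LT-HSC c.

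Whether the difference between FL and BM depended on the population was tested directly. The test of the whole interaction passed for 0 members (limma moderated F test), against 0.82% of genes, and for 3 at an unadjusted p under 0.05 (Ncl, Ltv1 and Gar1), where 12.4% of all genes reached that level. Neither of the single interaction contrasts, LT-HSC against MPP and LT-HSC against ST-HSC between the sources, passed for any member (limma), with 1 and 3 members higher at an unadjusted p under 0.05, against 3.16% and 5.98% of genes. The standard error of such a contrast was 0.24 for the median gene, so interactions of the size of the differences above were not detectable for most members.

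**Figure D3:**
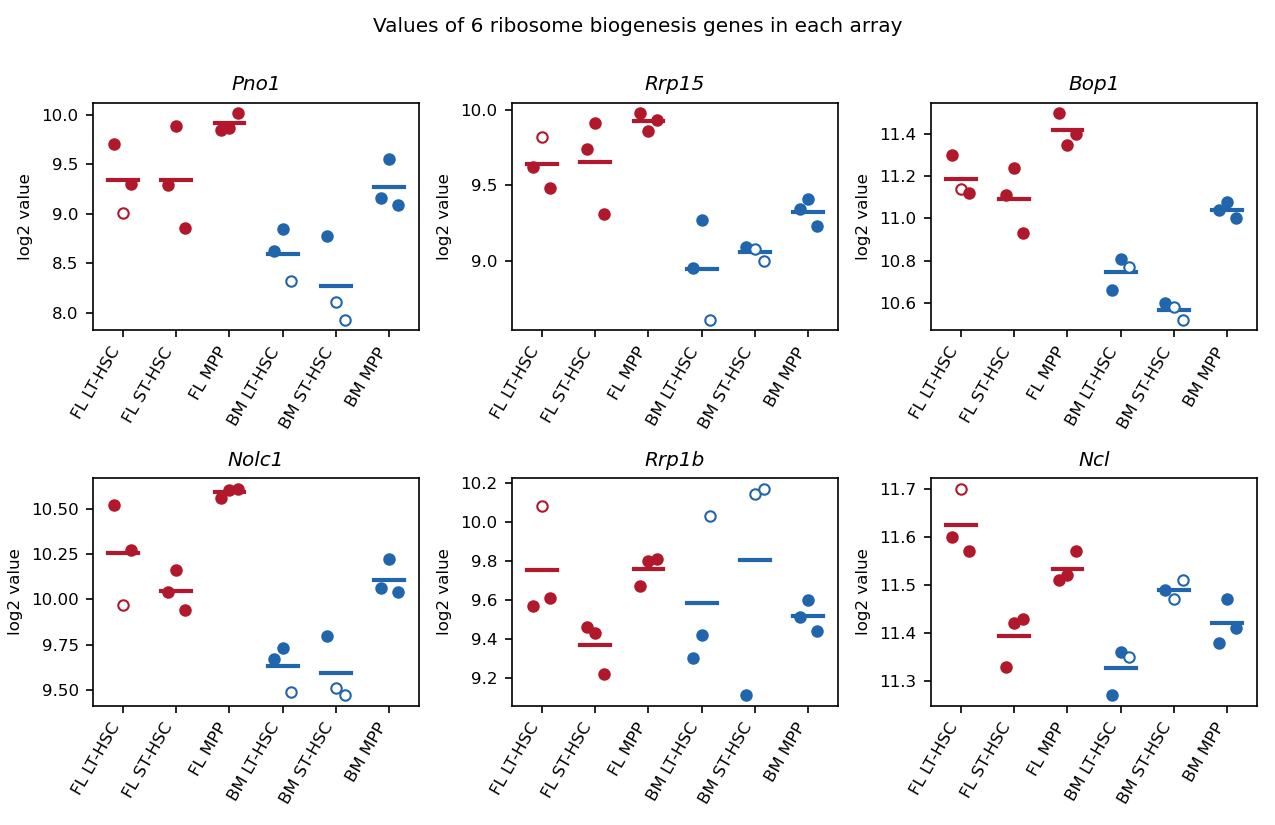
Log2 values of 6 members in each array, with a bar at the mean of each group (FL in red, BM in blue, open circles for the narrow arrays). Pno1, Rrp15, Bop1 and Nolc1 lie higher in FL in every population, the narrow arrays are the highest points of Rrp1b, from 10.03 to 10.17, and Ncl in FL ST-HSC lies below BM ST-HSC.

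Within each source, stem cells were compared with MPP. The mean over the 33 members in FL was 10.72 ± 0.08 (SD, n = 3) for LT-HSC, 10.70 ± 0.11 for ST-HSC and 10.95 ± 0.03 for MPP. In BM it was 10.36 ± 0.17, 10.38 ± 0.11 and 10.66 ± 0.05. Lowest were BM LT-HSC and BM ST-HSC, which did not differ beyond their spread. BM MPP followed, then FL ST-HSC and FL LT-HSC, whose ranges of 10.60 to 10.82 and 10.65 to 10.81 overlapped that of BM MPP, 10.62 to 10.72. FL MPP was above all other groups, at 10.92 to 10.97.

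Few members passed singly in these comparisons. Against MPP, FL LT-HSC had 0 called members (limma), where 1.84% of genes were called lower, and 10 lower and 0 higher at an unadjusted p under 0.05, against 8.16% and 5.96% of genes. The median difference was -0.23, and 21 of 33 members had all FL LT-HSC arrays below all FL MPP arrays, against 15.1% of genes. Gar1, Ncl and Npm1 lay above instead, 3 of 33 members against 9.68% of genes. In BM LT-HSC only Rrp12 passed, at -0.64 ± 0.17 (adjusted p = 0.0423), against 2.35% of genes called lower. There 19 members were lower at an unadjusted p under 0.05, against 9.62% of genes, the median was -0.31, and 20 members lay below MPP without overlap, against 12.8% of genes. Without BM LT-HSC c the median was -0.18. Rrp12 missed the threshold in 16 of the 30 alternatives, with adjusted p between 0.00941 and 0.217.

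ST-HSC were also compared with MPP. In FL Nolc1 was lower by 0.54 ± 0.14, an adjusted p of 0.0499, where 0.677% of genes were called lower, and the median of the members was -0.26. In BM 4 members were lower, against 4.79% of genes, with a median of -0.27. Pno1 differed by -0.99 ± 0.25 (adjusted p = 0.0264), Rrp12 by -0.63 ± 0.17 (adjusted p = 0.0379), Nolc1 by -0.51 ± 0.14 (adjusted p = 0.0384) and Bop1 by -0.47 ± 0.11 (adjusted p = 0.0154). The BM count was 0 without BM ST-HSC b, BM ST-HSC c, BM MPP a or BM MPP b, 2 without FL MPP a, FL MPP b, FL MPP c or BM MPP c, 8 without BM LT-HSC c and 10 without BM ST-HSC a. Without the narrow arrays, which leaves 1 BM ST-HSC array, the median was -0.16. With array weights 21 members were lower and 3 higher, against 4409 and 3238 of 19505 genes. The FL call of Nolc1 missed the threshold in 16 of the 30 alternatives. Between LT-HSC and ST-HSC 0 members passed in either source (limma), where 0.559% of genes in FL and 1.71% in BM were called in either direction, and at an unadjusted p under 0.05 there was 1 member higher in FL LT-HSC (4.23% of genes) and 2 lower in BM LT-HSC (4.63%).

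Members varied together over the arrays. The median correlation between 2 members over the 18 arrays was 0.68, of 528 pairs, and 455 pairs correlated above 0. These are descriptions, since arrays of a group and of a source share what sets them apart. Nolc1 and Nop14 correlated at 0.963 with the mean of the other members, Wdr12 at 0.962, Pno1 at 0.952 and Nop2 at 0.95. Gar1 (-0.201), Rrp1b (-0.254) and Npm1 (-0.051) did not follow the rest. After the group means were taken away the median pairwise correlation was 0.33.

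The mean of the members also moved with the spread of the array. Over 18 arrays it correlated at 0.669 with the interquartile range, and at 0.881 once group means were removed from both. The 3 narrow BM arrays had the lowest means of all, 10.17 in LT-HSC c, 10.35 in ST-HSC b and 10.28 in ST-HSC c. FL LT-HSC b, the narrow FL array, was at 10.65, above all BM arrays but BM MPP b at 10.72. What sets the narrow arrays apart is not given in the labels, and its part in these differences was not tested beyond the values without them and the covariate. The MPP groups hold no narrow array, and the median difference there was 0.26.

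**Figure D4:**
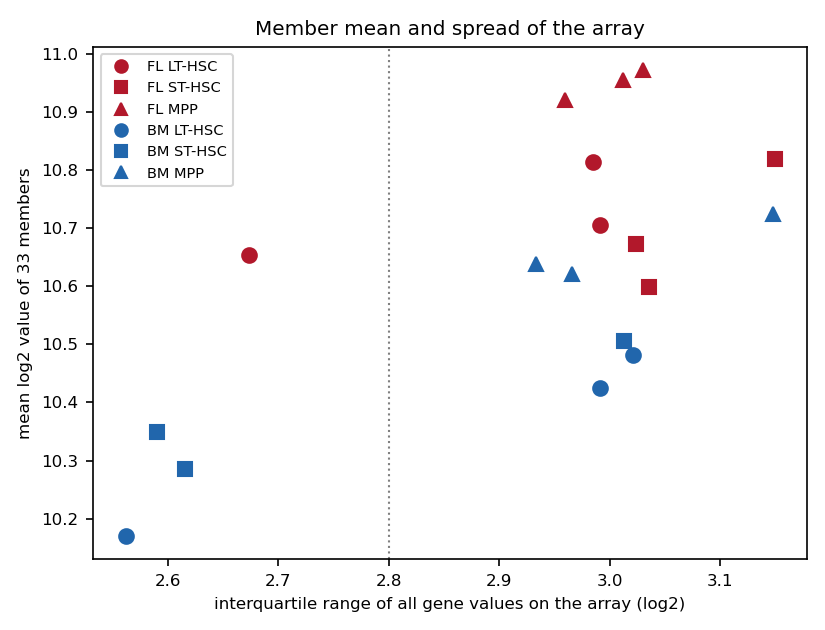
Mean log2 value of the 33 members against the interquartile range of all genes, 1 point per array. The 4 narrow arrays lie left of the dotted line at 2.8, and among the other 14 arrays FL MPP is highest, above 10.9, and the BM LT-HSC and BM ST-HSC arrays lowest, from 10.42 to 10.51.

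Other genes of the pathway were taken from lists chosen for their known roles. The shares of all genes called on average were 15.9% higher and 9.26% lower. Of 48 other small subunit factors 32 were higher in FL on average and 0 lower, with a median difference of 0.33. Tbl3 (0.76 ± 0.13), Utp20 (0.72 ± 0.17), Utp4 (0.59 ± 0.07) and Pdcd11 (0.58 ± 0.13), processome proteins, differed most. Of 49 other large subunit factors 23 were higher and 1 lower, with a median of 0.31. Mrto4, which holds the place of a stalk protein on the pre-ribosome, had the largest value (0.98 ± 0.15), followed by Pelp1, Ddx51 and Brix1 (0.61, 0.61 and 0.59). The lower one was Sbds, which acts in the last cytoplasmic step of large subunit maturation (-0.29, adjusted p = 0.0123). Among snoRNP assembly factors 9 of 10 were higher, with Znhit3 at 0.65 ± 0.15 and the helicases Ruvbl2 at 0.63 ± 0.12 and Ruvbl1 at 0.51 ± 0.11.

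Of RNA polymerase I and its initiation factors 2 of 11 were higher, a share near the 15.9% of all genes, Cd3eap (0.28 ± 0.07, adjusted p = 0.00661) and Rrn3 (0.27 ± 0.08, adjusted p = 0.0204), the latter the factor that makes the polymerase competent to initiate. The cytosolic ribosomal proteins, the products that the pathway assembles, differed little between the sources in signal on these arrays. Of 79 listed 56 were measured, and 0 of these passed in either direction (limma). At an unadjusted p under 0.05 there was 1 higher and 1 lower, against 21.6% and 13.4% of all genes. The ribosomal proteins had a median of -0.01 and values from -0.16 to 0.18. Their mean lay between 12.41 and 12.48 in all 6 groups, while the upper quartile of all genes was at most 9.44 on any array. Whether signals that high respond less to a difference in RNA was not tested.

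Against 15.9% of all genes, 10 of 14 genes of purine and pyrimidine synthesis were higher (median 0.33), among them Ctps (0.76 ± 0.14), Cad (0.71 ± 0.20) and Adsl (0.70 ± 0.09). So were 8 of 9 genes of the mTORC1 kinase, its regulators and cap-dependent initiation. Mtor and Tsc1, an inhibitor of the kinase, were both at 0.53. Proliferation genes moved in the same direction, 14 of 18 for DNA replication (median 0.43) and 14 of 19 for mitosis (median 0.46). In ST-HSC 15 of 18 and 17 of 19 of these were higher, with medians of 0.60 and 0.90 against 0.30 for the members, where 12.1% of all genes were called higher. In LT-HSC 5 of 18 and 0 of 19 passed (limma), with medians of 0.33 and 0.36 against 0.34 for the members, where 3.08% of genes were called. In MPP 1 of 18 and 0 of 19 passed (limma), with medians of 0.28 and 0.19 against 0.26, where 1.92% of genes were called. The mean of the members correlated over the arrays at 0.982 with other small subunit factors, 0.976 with nucleotide synthesis, 0.91 with DNA replication and 0.178 with ribosomal proteins. After group means were removed these correlations were 0.963, 0.934, 0.703 and 0.651 in the same order. The correlation with the interquartile range of the array was then 0.881. How far the share of dividing cells sets the members' difference was not tested.

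**Figure D5:**
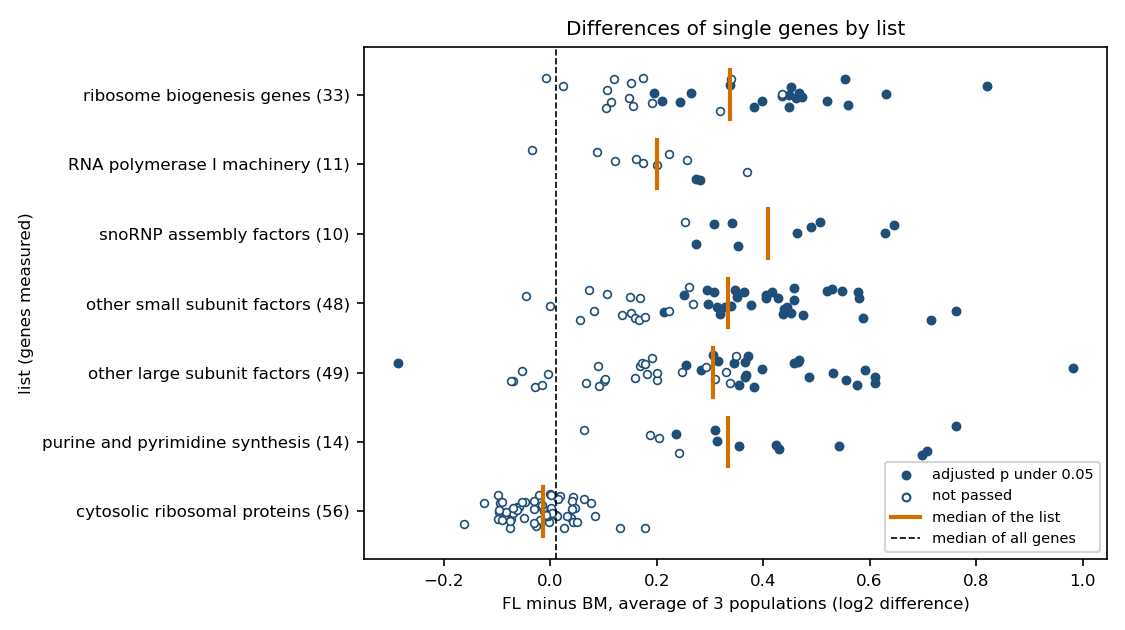
Difference between FL and BM averaged over 3 populations (log2) for single genes of 7 lists, with the number measured in brackets. Filled points passed at an adjusted p under 0.05, orange bars mark list medians and the dashed line the median of all genes, 0.01. Ribosomal proteins cluster around 0, while the medians of the assembly factor lists lie between 0.31 and 0.41.

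Markers of other cell types differed between the sources as well. Of 12 neutrophil markers 0 were higher and 11 lower in FL, and their mean was 7.34 to 8.31 over the FL arrays and 10.99 to 12.79 over the BM arrays. It was highest in BM LT-HSC c, the array with the lowest mean of the members. Among all genes 9.26% were called lower. B cell markers were lower in 7 of 9 and macrophage markers in 5 of 8, while for erythroid markers 1 of 9 was near that share. Hepatocyte markers were higher in 5 of 12, against 15.9% of all genes, and lower in 1, with Alb at 2.71 ± 0.40. The mean of the members correlated at -0.791 with the neutrophil markers over all arrays and at -0.557 after group means were removed. The part of these cells or their RNA in the members' difference was not tested.

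The Myc network had no common direction. Of 11 genes Mycn and Mga were higher in FL, a share of 18.2% near the 15.9% of all genes. Myc and Mxd1 were lower, a share of 18.2% against 9.26% of all genes. Mycn was at 10.82 ± 0.18, 10.93 ± 0.13 and 10.39 ± 0.06 in FL LT-HSC, ST-HSC and MPP, and at 10.06 ± 0.71, 9.34 ± 0.34 and 8.79 ± 0.06 in BM, a difference of 1.32 ± 0.14 (adjusted p = 2.05e-06). Myc was at 11.24 ± 0.47, 11.06 ± 0.14 and 12.29 ± 0.04 in FL and at 11.77 ± 0.35, 12.12 ± 0.06 and 12.44 ± 0.03 in BM, a difference of -0.58 ± 0.11 (adjusted p = 0.000711). The antagonist Mxd1 was lower by 0.82 ± 0.12. Levels of Myc in FL LT-HSC were below FL MPP by 1.05 (adjusted p = 0.00271) and in BM LT-HSC below BM MPP by 0.68 (adjusted p = 0.0488). Of 14 targets and regulators of p53, the factor that responds to disturbed ribosome assembly, 4 were higher and 1 was lower in FL. These shares are 28.6% and 7.14%, against 15.9% and 9.26% of all genes. The lower one was the cell cycle inhibitor Cdkn1a at -1.58, and 7 of the 14 differences were positive and 7 negative.

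Because Myc proteins bind the E-box, the letters CACGTG were searched on both strands of the RefSeq promoter windows (GRCm38.p6), which run from 250 bases before to 50 after a gene start. Windows were given for 29 of the 35 members, 27 of them measured. The motif was found in 6 of 29 members (20.69%), 11 of 40 other small subunit factors (27.5%), 7 of 42 other large subunit factors (16.67%) and 6 of 58 ribosomal protein genes (10.34%). Of all 27025 genes with a window 8.09% held it. The letters GCATGCGC, the core of the NRF1 motif, were in 2 of 29 members (6.9%) and 3.05% of all genes. A match is a description of these letters, not a bound site.

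The 6 stretches are shown because they place the motif in members of different behaviour. Each is 30 bases, 5′ to 3′ on the gene's strand, with the E-box in capitals.
Pno1: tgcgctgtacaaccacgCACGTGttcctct
Mybbp1a: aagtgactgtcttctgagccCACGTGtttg
Nop2: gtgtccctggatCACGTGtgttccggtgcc
Wdr43: cgcccgggcgaaCACGTGgctgccgcggag
Pes1: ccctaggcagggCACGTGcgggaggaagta
Ltv1: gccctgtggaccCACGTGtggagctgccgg
The motif starts 60 bases before the gene start in Nop2 and after it in the other 5, at base 38 of Pno1, 41 of Mybbp1a, 18 of Wdr43, 3 of Pes1 and 29 of Ltv1. The stretches lie at chr11:17211540-17211569 on the minus strand for Pno1, chr11:72441347-72441376 on the plus strand for Mybbp1a and chr6:125131811-125131840 on the plus strand for Nop2. Those of Wdr43 and Pes1 are chr17:71616220-71616249 and chr11:3963965-3963994, both on the plus strand, and that of Ltv1 is chr10:13193092-13193121 on the minus strand. Pno1, Mybbp1a, Nop2 and Wdr43 were higher in FL, by 0.82, 0.47, 0.45 and 0.34, while Pes1 and Ltv1, at 0.17 and 0.11, did not pass. Of the 27 measured members with a window 16 were higher in FL, 4 of them with the motif, and the windows of the others, Rrp15 and Bysl among them, do not hold these letters.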

How the data were processed

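Expression was measured on Clariom S arrays from total RNA amplified from 2 ng with 10 PCR cycles, per the labels' protocols. The deposited table holds log2 values per probe set, made by the authors in R 3.5.01 with oligo (submitters' processing notes). How background, normalization and summarization were handled is not given in the sources used. Of 22203 probe sets, 19572 had a single symbol in GEO's annotation of the array and 2631 did not. Where a gene had several, the brightest on average was kept, which set 67 aside and left 19505 genes. No scaling or filter was added.

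Group means of all 18 arrays were fitted with limma 3.58.1 in R 4.3.3, with moderated two-sided tests, and p-values were adjusted by the Benjamini-Hochberg method over all genes. Called means an adjusted p under 0.05. The fit was tested on simulated data. The number of arrays limits the precision, with a median standard error of 0.097 for the average difference and 0.167 between 2 groups.

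The members, lists and tests were chosen with earlier results of these data known. All measured members and sort markers were to be named, and of each other list up to 4 called genes with the largest difference. Alternatives were averaged probe sets, other scalings, a filter on dim genes, array weights, another variance model, replicate blocks, single groups and arrays left out.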

Additional observations from a re-analysis of the deposited data

Results flagged for a closer look

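The difference between FL and BM took opposite signs in different populations for Gar1, a box H/ACA protein, and Ncl, nucleolin, with no overlap between the arrays. Without overlap, 11% of all genes lay higher in FL in LT-HSC and 16% lower in FL in ST-HSC. Gar1 was at 11.50, 11.65 and 11.52 in FL LT-HSC against 11.27, 11.32 and 11.49 in BM, and at 11.25, 11.59 and 11.48 in FL ST-HSC against 11.61, 11.67 and 11.67 in BM. Its difference was 0.20 in LT-HSC, -0.21 in ST-HSC and 0.08 in MPP, so the difference in LT-HSC exceeded that in ST-HSC by 0.41, and that in ST-HSC lay below that in MPP, a contrast of -0.29. Ncl differed by 0.30 in LT-HSC and -0.10 in ST-HSC, a contrast of 0.39, and its ST-HSC difference stood against that in MPP with a contrast of -0.21. The interaction over the 3 populations did not pass for either gene (limma moderated F test, adjusted p = 0.4 for Gar1 and 0.356 for Ncl). The BM ST-HSC values include 2 narrow arrays. Without the narrow arrays, which leaves 1 BM ST-HSC array, the contrast of LT-HSC with ST-HSC was 0.38 for Gar1 and 0.37 for Ncl (limma, adjusted p = 0.556 and 0.53).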

How the results depend on the processing

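The average difference between FL and BM kept between 16 and 21 higher members when any 1 array was left out, with medians of 0.27 to 0.37. Calls within single populations moved more, and the cause was not tested. With 1 array left out the count of higher members ranged from 1 to 9 in LT-HSC, 1 to 15 in ST-HSC (lower 0 to 1) and 0 to 7 in MPP. Lower members ranged from 0 to 1 for LT-HSC against MPP in FL, 0 to 2 in BM (median -0.36 to -0.18), 0 to 2 for ST-HSC against MPP in FL and 0 to 10 in BM (higher 0 to 1). The median of LT-HSC against ST-HSC in BM ranged from -0.10 to 0.078, and that of the interaction of LT-HSC against MPP from -0.022 to 0.14.

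Median centring gave 12 higher members in LT-HSC, 6 in MPP and 2 lower for LT-HSC against MPP in BM. Leaving out the dimmest 30% of genes gave 11, 5 and 2, and 2 lower for ST-HSC against MPP in FL. A trended robust variance gave 11, 6 and 2. Repeated quantile normalization gave 6 in ST-HSC (median 0.15) and 5 in MPP, a median of -0.20 for LT-HSC against MPP in BM, 2 lower for ST-HSC against MPP in BM (median -0.16), and 0.15 for the interaction of LT-HSC against ST-HSC. Array weights gave 15 higher in MPP, where 1958 of 19505 genes were called higher. In ST-HSC they gave 19 higher and 2 lower, against 4777 and 4050 genes. For LT-HSC against MPP array weights gave 2 (FL) and 3 (BM) lower, against 749 and 804 genes. For ST-HSC against MPP they gave 10 lower in FL, against 786 genes. In BM that comparison had 21 lower and 3 higher, against 4409 and 3238 genes. For LT-HSC against ST-HSC in BM array weights gave 2 higher and 3 lower (median 0.14), against 2765 and 2175 genes. The interaction of LT-HSC against ST-HSC had 2 higher, against 1105 genes. Fitting only the groups compared gave 0 in LT-HSC, 7 in ST-HSC, 12 in MPP and 0 lower for LT-HSC against MPP in BM.

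Without the sgEzh2 arrays there were 12 higher on average, 0 in LT-HSC, 2 in ST-HSC and 0 in MPP. Lower counts were 0 for LT-HSC against MPP in BM and for ST-HSC against MPP in FL and BM, and the interaction of LT-HSC against MPP had a median of -0.012. Without the narrow arrays the average median was 0.23, with 0 higher in ST-HSC and 9 in MPP. Lower counts were 1 for LT-HSC against MPP in FL, 5 for ST-HSC against MPP in FL and 0 in BM, with BM medians of -0.18 for LT-HSC and -0.16 for ST-HSC. The array spread as a covariate was chosen after seeing the data. It gave an average median of 0.22, 16 higher in LT-HSC, 1 in ST-HSC (median 0.17) and 10 in MPP, with 1 lower for LT-HSC against MPP in FL, 6 for ST-HSC against MPP in FL and 1 in BM (median -0.15), and 0.23 for the interaction of LT-HSC against ST-HSC.

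The letters did not pair the arrays, since same-letter deviations had a median correlation of -0.026 within a source and -0.033 between sources. A fixed replicate block gave 20 higher on average, 5 in LT-HSC, 13 in ST-HSC and 2 in MPP, with 0 lower for LT-HSC against MPP in BM and 0 for ST-HSC against MPP in FL.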
